A study of Rattus norvegicus with 12 samples.

Results

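Genes of the mitochondrial ribosome were compared between the livers of female and male obese ZSF1 rats. They were taken by symbol, as every row of the count files named Mrpl or Mrps and a number. The rule found 67 of the 16478 genes in the files, of which 41 carry large subunit symbols (Mrpl) and 26 carry small subunit symbols (Mrps). All 67 passed the filter on low counts, and their lowest count in any library was 40.

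The groups were 6 females and 6 males, each animal a separate library. All 12 animals were obese, adult, 16 weeks old, untreated and fed rat chow. ZSF1 is a hybrid rat strain whose obese animals carry leptin receptor mutations, so both sexes share that defect, and no lean animals are analysed here. RNA came from liver tissue of mixed cells, in which fewer cells of a type and less RNA per cell cannot be told apart.

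Mitochondria keep a small genome and a ribosome of their own, which makes a few membrane proteins of the respiratory chain. Its RNA comes from mitochondrial DNA, whereas every one of its proteins is encoded in the nucleus, made in the cytosol and imported. Many of these proteins descend from bacterial ribosomal proteins, and others are found only in mitochondria. Liver cells are rich in mitochondria.

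The member genes lay on 17 chromosomes of the rat assembly GRCr8, and 54 of them had a start region in the RefSeq promoter table for that assembly, 250 bases before to 50 after the first listed transcription start. Because the counts were made on rn4, these positions describe the reference and not the authors' alignments. Motifs were searched as exact letters on both strands. They were NRF1 (GCATGCGC), GABP and other ETS factors (CCGGAAGT), YY1 (AAGATGGC), the oestrogen-related receptors ERR (TCAAGGTCA), the E-box (CACGTG) and the TATA box (TATAAA). NRF1 and GABP are known as activators of nuclear genes for mitochondrial proteins. The YY1 letters stood in 13 of 54 member start regions (24.1%), against 5.88% of the 7997 start regions of tested genes and 3.44% of all 27457 in the table.

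In 10 of those 13 genes the YY1 letters were read in the direction of transcription within the 50 bases after the start. Such a match was in 18.5% of member start regions and in 2.9% of those of tested genes. The 10 stretches are shown because of the motifs searched this was the one that most members shared. Each is written 5′ to 3′ on the gene's strand, with its GRCr8 position, the YY1 letters in capitals and 8 bases on either side.
Mrpl37 chr5:127074946-127074969 (-): cccgggcaAAGATGGCggcgtcca
Mrpl42 chr7:32028488-32028511 (-): attgaagcAAGATGGCgagcgcgc
Mrpl46 chr1:142116991-142117014 (-): aagacggaAAGATGGCggcgccca
Mrpl49 chr1:212779296-212779319 (-): gaggagcaAAGATGGCagcaaatg
Mrpl50 chr5:68668046-68668069 (-): gcttgtcgAAGATGGCggcgctgt
Mrps10 chr9:21122408-21122431 (-): agggcaccAAGATGGCggcgcgcg
Mrps18a chr9:22367365-22367388 (-): gtgttcccAAGATGGCggccctca
Mrps18b chr20:2843026-2843049 (+): tgtgcgacAAGATGGCtgcctcct
Mrps27 chr2:32474225-32474248 (+): tacgctccAAGATGGCggccccca
Mrps30 chr2:52195871-52195894 (-): ggaggacaAAGATGGCggctgcca
The searched YY1 letters themselves hold ATG followed by GC, so every match does. The same letters could be a translation start, and the tables used here give no coding starts. Genes with the match were on both sides of the expression result given below: 6 of the 10 were higher in males, and Mrpl46, Mrpl49, Mrps10 and Mrps30 were not past the threshold. The match was in 15% of the 40 start regions of members higher in males and in 28.6% of the 14 of members not past it.

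Fewer members held the other motifs. The GABP and ETS letters stood in 8 of 54 regions (14.8%, against 8.88% of those of tested genes) and the NRF1 letters in 5 (9.26%, against 5.24%). The E-box was in 6 (11.1%, against 9.53%), the TATA letters in 7 (13%, against 6.83%), and the ERR letters in 0 (against 0.2%). The 4 upstream regions below, chosen after their values were seen, show how these matches lie, with NRF1, GABP and ETS, and E-box letters in capitals. The Mrpl17 and Mrpl32 regions each hold 3 overlapping or neighbouring NRF1 matches, and the NRF1 letters overlap their own reverse complement, so that 10 capitals can hold a match on each strand.
Mrpl53 chr4:117172793-117173042 (+): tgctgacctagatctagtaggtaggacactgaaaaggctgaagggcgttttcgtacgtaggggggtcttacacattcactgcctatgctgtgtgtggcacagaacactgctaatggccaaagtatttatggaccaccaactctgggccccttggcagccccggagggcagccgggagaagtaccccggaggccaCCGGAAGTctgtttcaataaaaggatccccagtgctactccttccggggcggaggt
Mrpl17 chr1:169575700-169575949 (-): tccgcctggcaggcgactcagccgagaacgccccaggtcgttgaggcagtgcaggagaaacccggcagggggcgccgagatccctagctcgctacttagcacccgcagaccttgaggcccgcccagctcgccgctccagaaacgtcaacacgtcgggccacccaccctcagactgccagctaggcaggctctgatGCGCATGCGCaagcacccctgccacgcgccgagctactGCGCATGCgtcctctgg
Mrpl32 chr17:55260441-55260650 (+): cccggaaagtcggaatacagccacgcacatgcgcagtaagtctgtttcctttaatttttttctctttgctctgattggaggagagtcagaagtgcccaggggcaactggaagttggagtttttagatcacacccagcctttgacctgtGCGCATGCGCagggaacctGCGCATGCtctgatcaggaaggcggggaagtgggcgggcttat
Mrps18b chr20:2842756-2843005 (+): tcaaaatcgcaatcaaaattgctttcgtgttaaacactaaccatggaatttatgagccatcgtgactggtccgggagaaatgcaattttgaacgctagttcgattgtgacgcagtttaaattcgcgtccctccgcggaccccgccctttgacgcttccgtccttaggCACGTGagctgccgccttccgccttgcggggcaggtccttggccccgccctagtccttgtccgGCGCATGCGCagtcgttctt
All 4 of these genes were higher in males, by 1.54-fold for Mrpl53, 1.18-fold for Mrpl17, 1.28-fold for Mrpl32 and 1.3-fold for Mrps18b. Across the members with a start region, at least 1 of the NRF1, GABP and YY1 matches was in 14 of the 40 genes higher in males (35%) and in 8 of the 14 not past the threshold (57.1%), against 18.3% of tested genes. A match is only a run of letters, and no binding was measured.

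Mitochondrial ribosomal protein genes were higher in males. Of the 67, 50 (74.6%) were higher in males at an adjusted p under 0.05, 0 were higher in females and 17 were not past the threshold. Over all 9943 genes tested, 22.7% were higher in males and 20.5% higher in females, 43.2% in either direction. The differences were small. The median member was 1.24-fold higher in males (median log2 of females over males -0.31, against -0.01 over all genes tested), and 3 members reached 1.5-fold. In 38 of 67 members every male was above every female, against 12.8% of all genes tested. Among the 50, Mrps9, Mrpl13, Mrps28 and Mrpl21 lay closest to the threshold and lost the call in some of 21 other settings, and the other 46 kept it in all of them. Log2 differences below are females over males, so negative values are higher in males. Levels are CPM, counts per 1000000 reads in genes, scaled for library composition by the TMM method, and p-values are from edgeR's quasi-likelihood test adjusted over all 9943 genes.

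**Figure D1:**
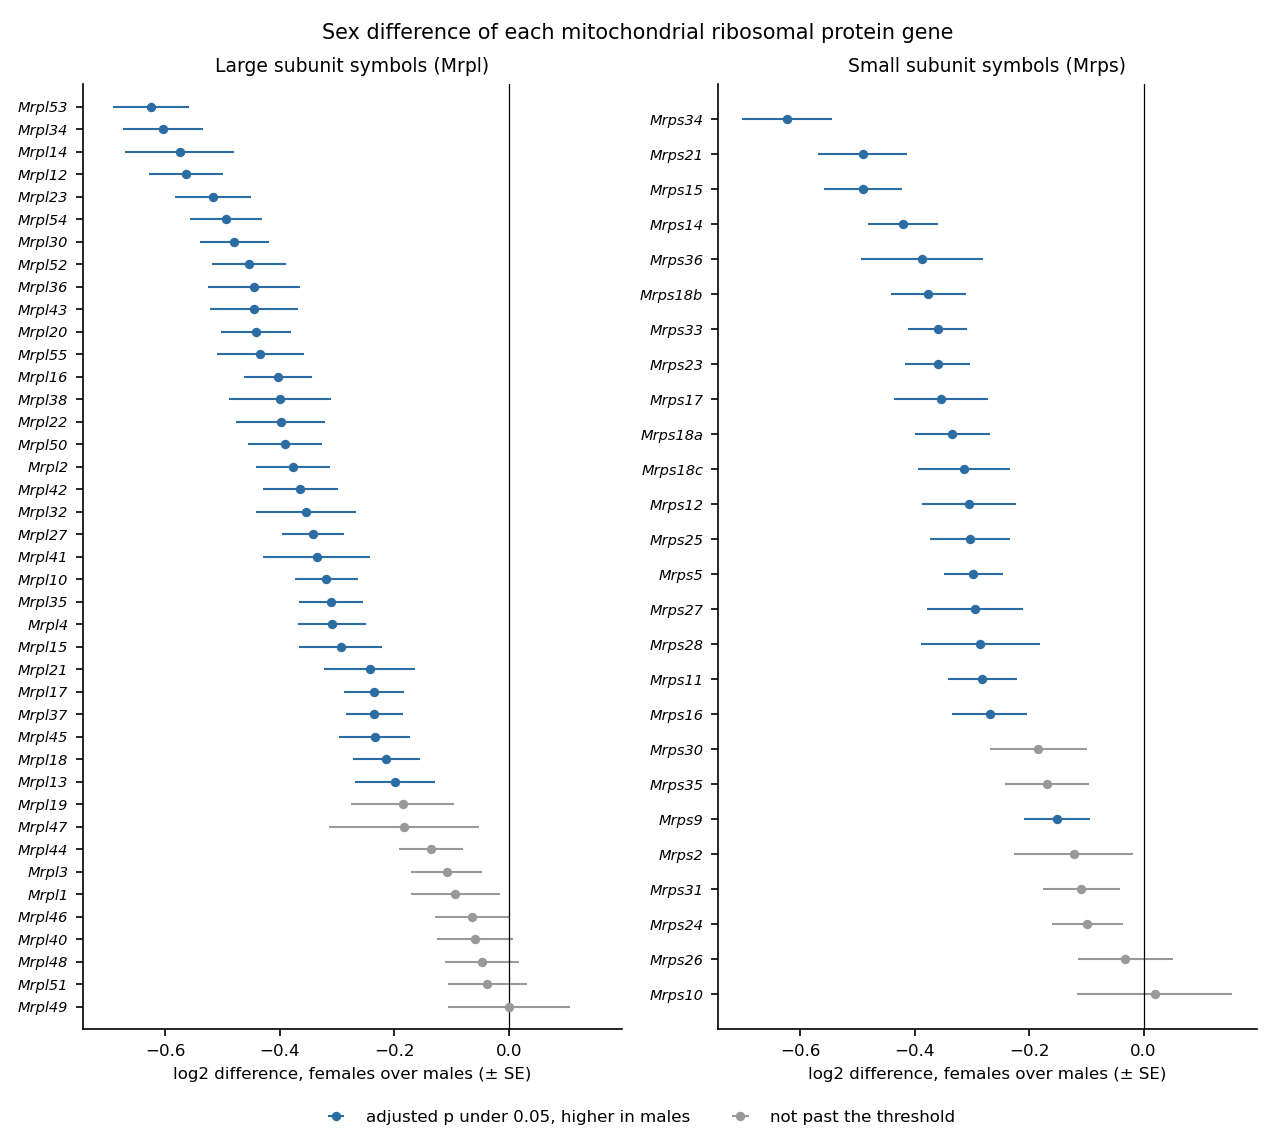
Log2 difference of females over males for each of the 41 Mrpl and 26 Mrps genes, with its standard error; blue points passed an adjusted p under 0.05 and grey points did not. Points lie left of 0 for 65 of 67 genes, from -0.62 at Mrpl53 to 0.02 at Mrps10.

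Libraries held 6763879 to 24837602 counts over genes in females and 11381428 to 29232871 in males, and member genes made up 0.160% ± 0.0108 of them in females and 0.196% ± 0.00538 in males (SD, n = 6 each). Male 4 and, less so, female 12 stood apart from their own sex over all genes: the chi-square per degree of freedom was 91.8 to 212 between male 4 and the other males, and 9.9 to 27.9 among those 5. For female 12 it was 38.6 to 54, against 6.02 to 28.4 among the other females. This measure was taken on raw counts and grows with library depth, which differed between animals. Without male 4, 51 members were higher in males and all 67 were below 0; without female 12 it was 47, and without both 47. Counts that fit more than 1 gene made up 0.359% to 0.388% of female and 1.24% to 2.2% of male libraries, and their part in the results was not tested directly. Of the 53 members that overlap no other protein-coding gene in RefSeq's GRCr8 annotation, 40 were higher in males, as were 10 of the 14 that do overlap one. The counts were made on rn4 with an annotation and strand setting not given. This split therefore does not show which members' reads were affected. Labels give no batch; animal numbers run from 1 to 6 for males and from 7 to 13 for females, so sex cannot be told apart from anything that followed those numbers.

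Summed over its 41 genes, the large subunit stood at 973 CPM in the lowest female, 1001 at the female median and 1046 in the highest female, and at 1224, 1270 and 1288 CPM in males. Mean levels were 1005 ± 25.0 CPM in females and 1262 ± 26.1 CPM in males (SD, n = 6 each). For the 26 small subunit genes the lowest, median and highest sums were 554, 578 and 613 CPM in females and 687, 715 and 736 CPM in males. Neither sum overlapped between the sexes, and female 12 was the lowest and female 9 the highest female in both. The highest female and the lowest male were still apart by a margin wider than either sex's SD.

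**Figure D2:**
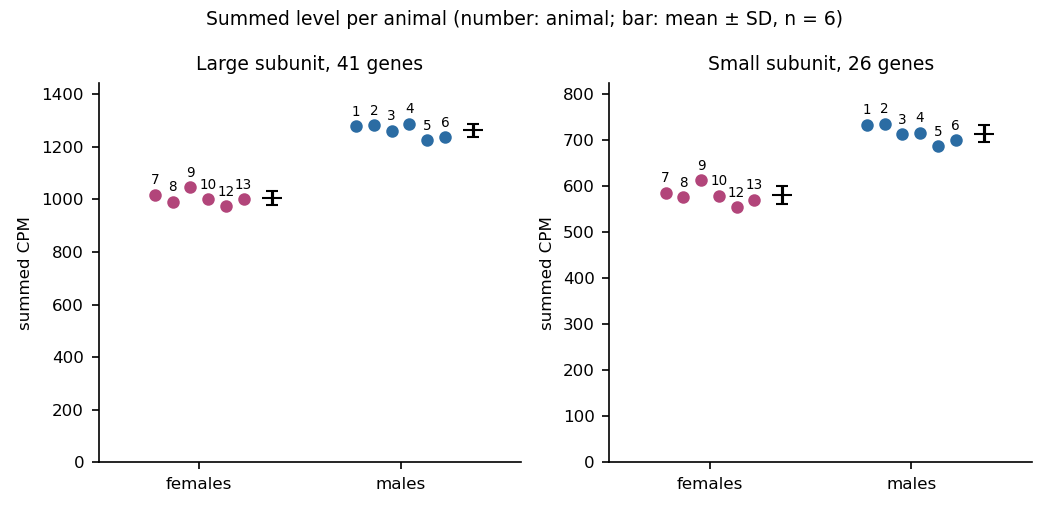
Summed CPM of the 41 large subunit and 26 small subunit genes in each animal, numbered by animal, with mean ± SD of 6 animals beside each group. Every male lies above every female in both panels, at 1224 to 1288 against 973 to 1046 CPM for the large subunit and 687 to 736 against 554 to 613 CPM for the small.

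Both subunits were higher in males, and the difference between them was not tested. Of the large subunit genes 31 of 41 (75.6%) were higher in males, with a median log2 difference of -0.34, and of the small subunit genes 19 of 26 (73.1%), with a median of -0.30. The ratio of the large to the small sum was 1.73 ± 0.0199 in females and 1.77 ± 0.0223 in males (SD, n = 6 each), with ranges of 1.71 to 1.76 and 1.74 to 1.80 that overlapped. Sorting genes by their known place in the structure instead of by symbol, with Mrps30 and Mrps18a in the large subunit and Mrps36 left out, gave 32 of 43 and 17 of 23. Members also shared their direction across descent: 21 of 25 large and 13 of 16 small subunit genes with a bacterial counterpart were higher in males, and 10 of 16 and 5 of 9 of those found only in mitochondria. The medians of these 4 groups ran from -0.34 to -0.28, and the difference between groups was not tested.

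In the large subunit the widest difference was at Mrpl53, a protein found only in mitochondrial ribosomes. Its level was 16.6, 18.7 and 20.7 CPM in the lowest, median and highest female and 27.5, 28.7 and 31.7 CPM in males. No female came near the lowest male, and Mrpl53 was 1.54-fold higher in males (log2 -0.62 ± 0.0669 SE, adjusted p = 4.71e-06). Its start region, printed above, holds a GABP and ETS match. Such a match was in 12.5% of start regions of members higher in males and 21.4% of those not past the threshold. Mrpl34, the counterpart of bacterial L34, ran from 13 through 13.5 to 15.8 CPM in females and from 18.9 through 21.4 to 22.9 CPM in males. It was 1.52-fold higher in males (log2 -0.60 ± 0.07 SE, adjusted p = 1.07e-05), again with no overlap.

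Mrpl12 is the counterpart of bacterial L7/L12, which forms the flexible stalk where translation factors bind. Females had 41.7, 46.5 and 52.8 CPM (lowest, median, highest) and males 64.7, 66.4 and 78.4 CPM. That made it 1.48-fold higher in males (log2 -0.56 ± 0.065 SE, adjusted p = 1.01e-05), without overlap. Mrpl10, which anchors the stalk, was higher too (log2 -0.32 ± 0.0552 SE), at 35.4 ± 1.14 CPM in females and 44.1 ± 3.04 CPM in males (SD, n = 6 each, adjusted p = 0.000354). Both stalk genes therefore lay on the same side, with every male above every female.

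Mrpl14, whose bacterial counterpart faces the small subunit, ran from 13.6 through 16.4 to 18.3 CPM in females and from 20.4 through 25.4 to 27.7 CPM in males (log2 -0.57 ± 0.0955 SE, adjusted p = 0.00025). Mrpl23 belongs to the rim of the tunnel through which the new protein leaves. It ran from 15.1 through 15.9 to 17.3 CPM in females and from 21 through 22.5 to 25.5 CPM in males, 1.43-fold higher in males (log2 -0.52, adjusted p = 2.93e-05). Its neighbour at the tunnel, Mrpl22, was 1.32-fold higher, and Mrpl45, which ties the ribosome to the inner membrane, 1.18-fold (adjusted p = 0.000846 and 0.00755). All of these were free of overlap between the sexes.

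Mrpl54, found only in mitochondria, was at 23.4, 25.6 and 27 CPM in females and 32.9, 35.9 and 40.4 CPM in males (log2 -0.49, adjusted p = 2.3e-05). By mean CPM over all 12 animals, which is not corrected for transcript length, the most abundant large subunit transcripts were Mrpl12, Mrpl15 and Mrpl52. In females alone Mrpl17, at 50.9 CPM, stood above Mrpl52 and Mrpl12. Mrpl52 gave 44.2, 46.8 and 50.02 CPM in females and 58.7, 62.8 and 75.7 CPM in males (1.37-fold, adjusted p = 6.88e-05). Mrpl15 was less far apart, at 42.6, 52.6 and 55.8 CPM in females and 56.4, 61.4 and 69.6 CPM in males (1.23-fold, adjusted p = 0.00436). The highest female and the lowest male almost touched for Mrpl15, but did not overlap.

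**Figure D3:**
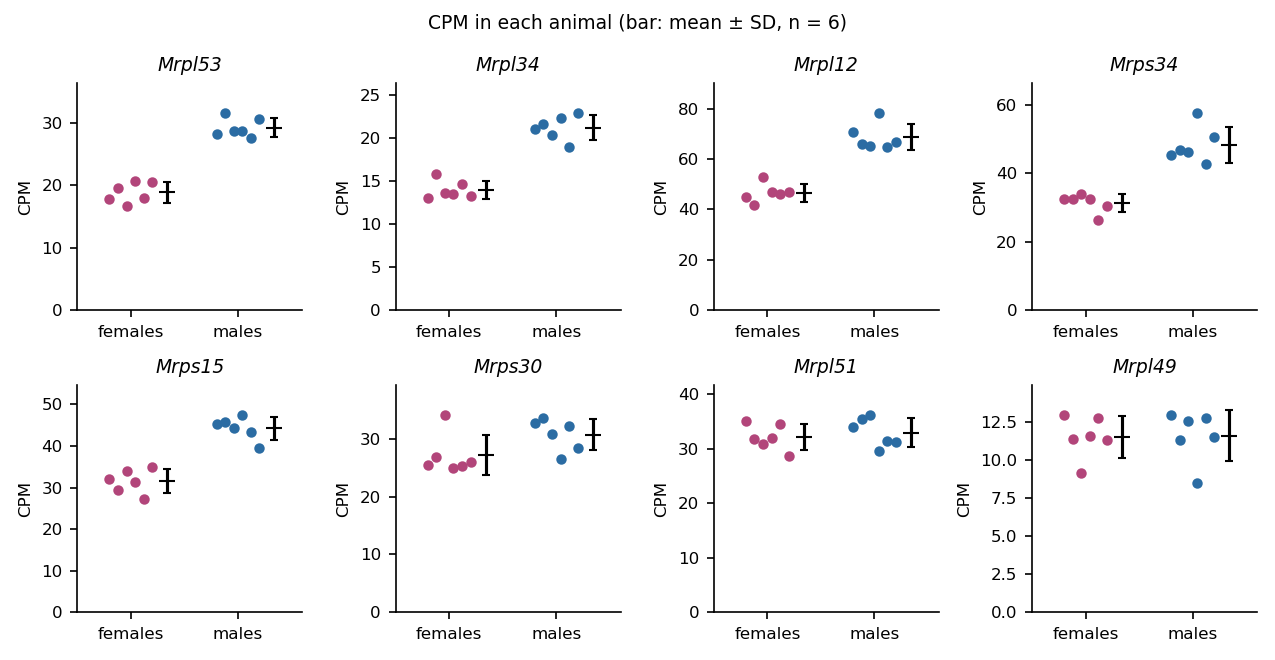
CPM of 8 member genes in each animal, with mean ± SD of 6 animals; each axis starts at 0 and has its own scale. Males stand clear of females for Mrpl53, Mrpl34, Mrpl12, Mrps34 and Mrps15, whereas the sexes overlap for Mrps30, Mrpl51 and Mrpl49.

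In the small subunit the widest difference was at Mrps34, a protein with no bacterial counterpart. Females had 26.5, 32.4 and 34.1 CPM (lowest, median, highest) and males 42.8, 46.5 and 57.7 CPM. It was 1.54-fold higher in males (log2 -0.62 ± 0.0787 SE, adjusted p = 2.45e-05), and male values were spread more widely than female ones. Mrps21, the counterpart of bacterial S21, ran from 9.16 through 10.8 to 11.6 CPM in females and from 13.5 through 14.9 to 16.6 CPM in males (1.41-fold, adjusted p = 0.000173). Both were without overlap.

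Mrps15, the counterpart of bacterial S15, was at 27.2, 31.7 and 34.9 CPM in females and 39.5, 44.8 and 47.5 CPM in males (1.4-fold, log2 -0.49 ± 0.0682 SE, adjusted p = 5.57e-05). Mrps14, the counterpart of S14, was at 19.8, 21.9 and 23 CPM in females and 27.2, 28.4 and 31.8 CPM in males (1.34-fold, adjusted p = 7.98e-05). These lay apart in all animals too. Mrps12, whose bacterial counterpart lines the decoding centre, was higher in males by 1.24-fold (adjusted p = 0.00754), but with overlap, from 16.9 to 20.6 CPM in females and from 20.1 to 26.8 CPM in males.

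Mammals have 3 genes related to bacterial S18, and all 3 were higher in males without overlap. Mrps18b was highest in CPM, at 32, 33.3 and 36.6 CPM in females and 40.0, 41.7 and 50.4 CPM in males (1.3-fold, adjusted p = 0.000365). Mrps18a, whose protein sits in the large subunit despite its symbol, was at 21.4, 24.6 and 26.9 CPM in females and 29.1, 30.9 and 32.7 CPM in males (1.26-fold, adjusted p = 0.000883). Mrps18c was lowest of the 3, at 19.5 ± 2.05 CPM in females and 24.3 ± 1.98 CPM in males (SD, n = 6 each; 1.24-fold, adjusted p = 0.00559). Start regions of Mrps18a and Mrps18b both carry the YY1 letters shown above, and that of Mrps18b also the NRF1 and E-box letters.

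Mrps36 is named as a ribosomal protein, but is listed by RefSeq as Kgd4 and known as a subunit of the 2-oxoglutarate dehydrogenase complex of the citric acid cycle. It had 13.7, 15.1 and 20.5 CPM in females and 17, 20.6 and 24.2 CPM in males, 1.31-fold higher in males (log2 -0.39 ± 0.107 SE, adjusted p = 0.00886). The ranges overlapped, and of all members it had the widest relative spread among females (coefficient of variation 16.6%, against a median of 7.45% over members).

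The 17 genes that did not pass the threshold were Mrpl1, Mrpl3, Mrpl19, Mrpl40, Mrpl44, Mrpl46, Mrpl47, Mrpl48, Mrpl49, Mrpl51, Mrps2, Mrps10, Mrps24, Mrps26, Mrps30, Mrps31 and Mrps35. All but Mrpl49 and Mrps10 had log2 differences below 0, down to -0.19 at Mrpl19. Their standard errors, from 0.056 (Mrpl44) to 0.136 (Mrps10), set how small a difference could be seen. Mrpl51, found only in mitochondria, was at 28.6, 31.8 and 35 CPM in females and 29.5, 32.6 and 36.2 CPM in males (log2 -0.04 ± 0.0686 SE, adjusted p = 0.694). Mrpl48 was at 15.1, 17.3 and 18.6 CPM in females and 16.3, 17.8 and 18.7 CPM in males (log2 -0.05 ± 0.0642 SE, adjusted p = 0.593). The sexes were interleaved for both genes.

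Mrpl49 was at 9.15, 11.5 and 12.9 CPM in females and 8.45, 12.0 and 12.9 CPM in males, with a fitted ratio of males to females of 0.999 (adjusted p = 0.996). Male 4 was the lowest of all 12 animals. In the small subunit, Mrps24, the counterpart of bacterial S3, was at 21.5, 23.9 and 25.7 CPM in females and 23.8, 25.3 and 27.8 CPM in males (log2 -0.10 ± 0.0625 SE, adjusted p = 0.223). Mrps26, found only in mitochondria, was at 16.7, 20.2 and 22.2 CPM in females and 18.3, 20.1 and 23.5 CPM in males (log2 -0.03 ± 0.083 SE, adjusted p = 0.783). The ranges of the sexes overlapped for all 3 genes, widely for Mrpl49 and least for Mrps24.

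Mrps10 had the lowest level of the members, at 4.35, 4.88 and 5.54 CPM in females and 3.46, 4.88 and 6.23 CPM in males (log2 0.02 ± 0.136 SE, adjusted p = 0.926), and the widest relative spread among males (coefficient of variation 19.6%, against a median of 7.18% over members). Mrps30, which sits in the large subunit despite its symbol, was at 25.0, 25.7 and 34.1 CPM in females and 26.5, 31.5 and 33.5 CPM in males (log2 -0.18 ± 0.0842 SE, adjusted p = 0.0916). Female 9 alone stood at the top of that female range. Without female 9 Mrps30 was higher in males (log2 -0.25, adjusted p = 0.0102), as it was without male 4 (log2 -0.22, adjusted p = 0.0357).

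**Figure D4:**
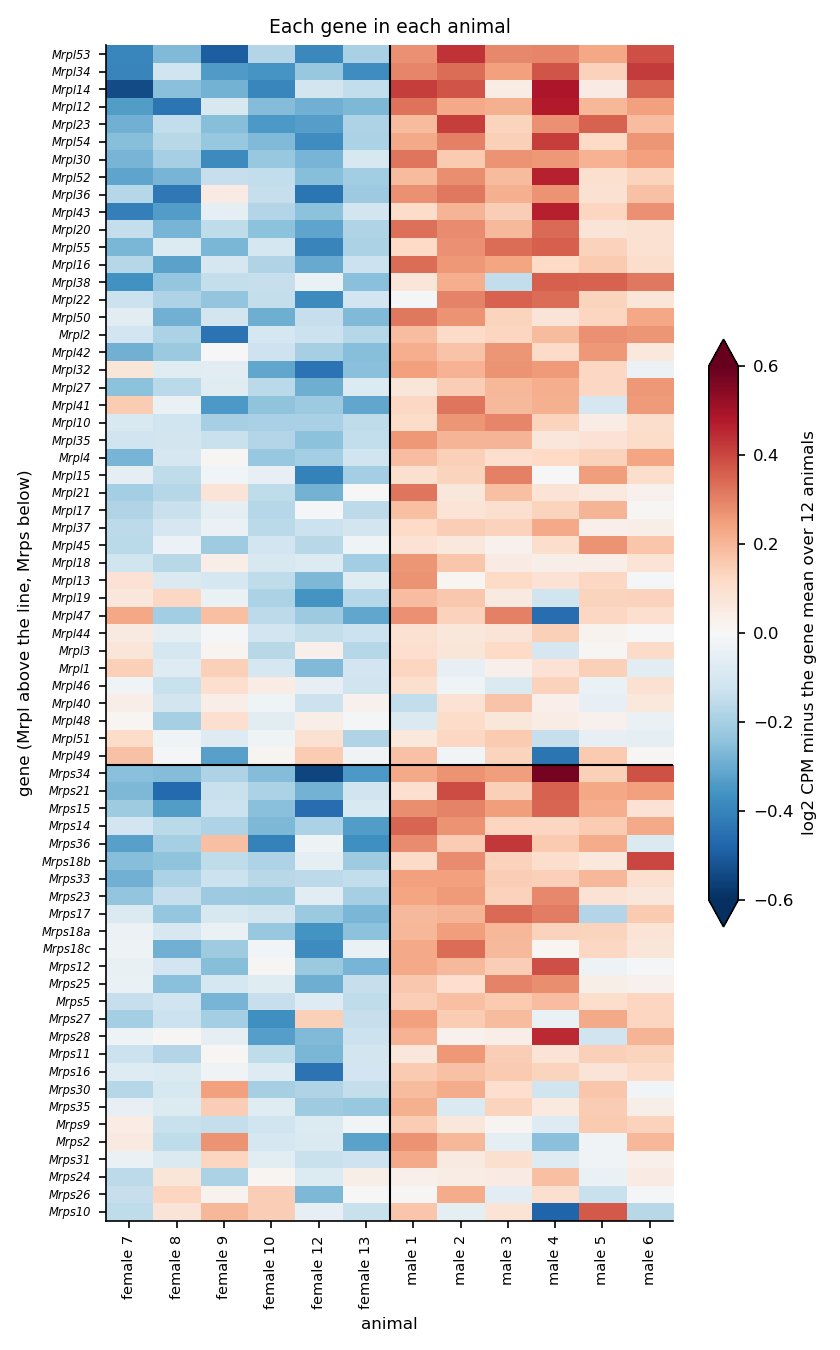
Log2 CPM of each of the 67 genes in each of the 12 animals, minus the gene's mean over all animals, with Mrpl genes above the horizontal line, Mrps genes below it and females left of the vertical line. Within each subunit, genes run from the widest male excess to the smallest; female columns are mostly blue and male columns mostly red, except in the lowest rows of each block, and male 4 has both deep red and deep blue cells.

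Animals of the same sex differed among themselves by gene. Female 9 was the highest female for 26 of 67 genes and female 12 the lowest for 24. Among males, male 4 was both the highest for 18 genes and the lowest for 17, whereas male 5 was the lowest for 19 and the highest for 6. The large subunit sum of male 4 was the highest of the males, at 1288 CPM. Its small subunit sum, 716 CPM, lay near the male median of 715 CPM, while its single genes went to both ends.

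Where a neighbour starts close to a member gene and runs the other way, the 2 did not always show the same result. RefSeq lists 17 of 54 members (31.5%) with another gene that starts within 1000 bases and runs the other way, against 16.6% of tested genes. Of the 13 neighbours that were tested, 5 were higher in males and 8 were not past the threshold, and 0 were higher in females. Over all genes tested, 22.7% were higher in males and 20.5% higher in females. The 13 include 2 members, Mrps11 and Mrpl46, each counted as the other's neighbour. Of the 9 tested neighbours of members higher in males, 2 were higher in males. Mrps11 and Mrpl46 are members that face each other across 234 bases. The interval between their starts is printed because both genes begin at it. It holds none of the NRF1, GABP, YY1, ERR or E-box letters, so it has no capitals. It does hold the TATA letters, which are not capitalized here, at -82 to -77 from the Mrps11 start.
Mrps11 chr1:142117030-142117263 (+): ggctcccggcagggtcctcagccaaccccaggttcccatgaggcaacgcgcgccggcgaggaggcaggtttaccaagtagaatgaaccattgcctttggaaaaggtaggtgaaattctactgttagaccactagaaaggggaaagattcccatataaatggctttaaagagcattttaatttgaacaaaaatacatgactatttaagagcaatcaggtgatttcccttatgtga
Mrps11 was at 18.5 ± 1.19 CPM in females and 22.5 ± 1.08 CPM in males (SD, n = 6 each), 1.22-fold higher in males with no overlap (adjusted p = 0.00185). Mrpl46, which starts at the other end, was at 19.5 ± 1.24 and 20.4 ± 1.29 CPM (adjusted p = 0.453). Whether the 2 differences differ from each other was not tested.

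Mrpl49 starts 186 bases from Fau, which encodes a ubiquitin-like protein fused to cytosolic ribosomal protein S30. Fau was at 49.1 ± 3.65 CPM in females and 67.2 ± 7.09 CPM in males (log2 -0.45, adjusted p = 0.000216), beside the level ratio near 1 of Mrpl49. Mrpl47 starts 244 bases from Ndufb5, a subunit of respiratory complex I, and RefSeq's GRCr8 annotation lists the genes as overlapping. Ndufb5 was higher in males (log2 -0.30, adjusted p = 0.00162), while Mrpl47 was at -0.18 ± 0.132 SE (adjusted p = 0.283). The reverse held for Mrps18b, higher in males, and Ppp1r10, a phosphatase regulatory subunit whose start lies 588 bases away (log2 -0.01, adjusted p = 0.966). Of the 9 tested neighbours of members higher in males, only 2 were higher in males themselves. They were Psma2, beside Mrpl32 (log2 -0.15, adjusted p = 0.0237), and Pnpla7, beside Mrpl41 (log2 -0.27, adjusted p = 0.0181). Mrpl40 and Hira were both not past the threshold. Differences within pairs were not tested.

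Other proteins of the mitochondrial ribosome, whose symbols do not begin with Mrpl or Mrps, were higher in males for 5 of 7 genes (71.4%) and in females for 0, with a median log2 difference of -0.43. Over all genes tested, 22.7% were higher in males and 20.5% higher in females. Mrp63, a large subunit protein, was at 13.8 to 17.2 CPM in females and 21.2 to 25.8 CPM in males (1.51-fold, adjusted p = 2.31e-05). Aurkaip1, a small subunit protein, was at 22.0 to 25.2 CPM in females and 30.1 to 39.1 CPM in males (1.46-fold, adjusted p = 1.89e-05). Neither overlapped between the sexes. Dap3 and Ptcd3, both of the small subunit, were not past the threshold, with male to female ratios of 0.983 and 1.00 (adjusted p = 0.803 and 1).

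Factors that assemble the mitochondrial ribosome or modify its RNA were higher in males in 10 of 18 (55.6%) and in females in 0, with a median of -0.24. Over all genes tested these shares were 22.7% and 20.5%. Ftsj2, a methyltransferase of the large ribosomal RNA, was 1.4-fold higher in males (adjusted p = 0.00722), and Mpv17l2, which acts in assembly, 1.29-fold (adjusted p = 0.00642). Among factors that run the translation cycle, 3 of 7 (42.9%) were higher in males and 0 in females. Tufm, the elongation factor that brings aminoacyl-tRNA to the ribosome, was at 72.1 to 81.1 CPM in females and 89.5 to 110 CPM in males (1.33-fold, adjusted p = 7.61e-05). Gfm1, the translocating elongation factor, was 1.16-fold higher (adjusted p = 0.0266), but in 5 of 21 other settings it missed the threshold. With library totals alone as the scaling, or without female 8, female 10 or male 1, Tufm was the 1 factor of the 7 that passed.

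Of the aminoacyl-tRNA synthetases of mitochondria, which load tRNAs with amino acids, 4 of 15 (26.7%) were higher in males, near the share over all genes, and 1 of 15 was higher in females. Yars2, for tyrosine, was 1.27-fold higher in males (adjusted p = 0.023) and Vars2, for valine, 1.22-fold (adjusted p = 0.0053). Nars2, for asparagine, was 1.23-fold higher in females (adjusted p = 0.0326), a call lost in 6 of 21 other settings, and that of Yars2 in 4. Genes of mitochondrial DNA upkeep, transcription and RNA processing were higher in males in 7 of 18 cases (38.9%), with 1 higher in females. Over all genes tested these shares were 22.7% and 20.5%. Hsd17b10, a part of mitochondrial RNase P and a dehydrogenase of fatty and amino acid breakdown, was at 155 to 187 CPM in females and 308 to 390 CPM in males (2.06-fold, adjusted p = 3.33e-08). Peo1, the mitochondrial DNA helicase, was 1.74-fold higher in males (adjusted p = 1.65e-06), and Polg2, the accessory subunit of the DNA polymerase, 1.33-fold higher in females (adjusted p = 0.0155).

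Transcription factors and coactivators known to act on mitochondrial genes went both ways, with a median of 0.18. Of the 9, 2 (22.2%) were higher in males, near the 22.7% over all genes tested. In females 1 of 9 was higher, against 20.5% over all genes tested. Gabpb1, the partner of the ETS factor Gabpa, was at 1.88 to 2.49 CPM in females and 2.95 to 4.37 CPM in males (1.77-fold, adjusted p = 0.000183). Esrra, the oestrogen-related receptor alpha, was 1.34-fold higher in males (adjusted p = 0.00115). Pprc1, a coactivator related to Ppargc1a, was 1.31-fold higher in females (adjusted p = 0.0449), a call lost in 11 of 21 other settings. Nrf1, Gabpa and Yy1 were not past the threshold, with log2 differences of 0.25 ± 0.144, 0.18 ± 0.103 and 0.19 ± 0.117 (SE).

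Broader gene groups showed the same direction as the members. Cytosolic ribosomal protein genes were higher in males in 68 of 79 (86.1%) and in females in 0, with a median of -0.30. Rplp2 and Rpl41 led them at 1.54-fold and 1.53-fold (adjusted p = 5.43e-06 and 6.22e-06). Nuclear genes of the respiratory chain were higher in males in 62 of 70 (88.6%) and in females in 0, with a median of -0.37. Both shares were above the 74.6% of members and the 22.7% of all genes tested. Differences between these groups were not tested. Uqcrq, of complex III, and Ndufb3, of complex I, were 1.56-fold and 1.49-fold higher (adjusted p = 1.53e-06 and 2.38e-05).

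**Figure D5:**
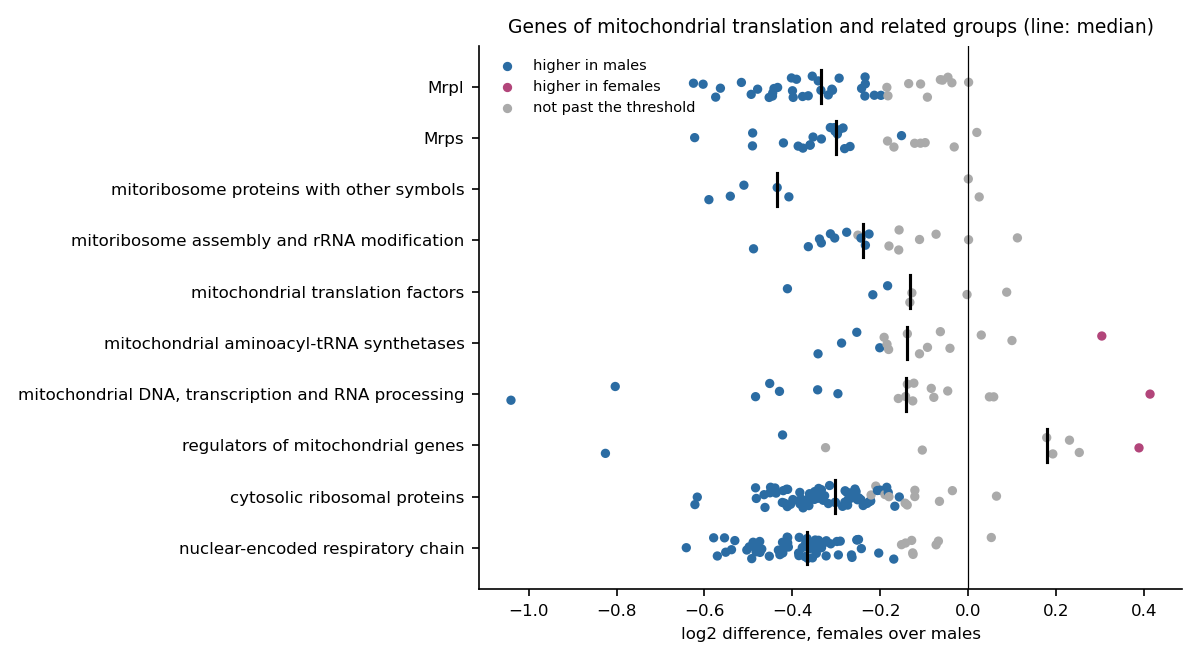
Log2 difference of females over males for each tested gene of the Mrpl and Mrps groups and of 8 related groups, with a black line at each group's median; blue is higher in males, pink higher in females and grey not past the threshold. The Mrpl and Mrps medians of -0.34 and -0.30 lie near those of cytosolic ribosomal proteins (-0.30) and the respiratory chain (-0.37), and the regulators' median lies above 0, at 0.18.

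Some markers of liver cell types differed between the sexes. Over all genes tested, 22.7% were higher in males and 20.5% higher in females. Hepatocyte markers favoured males in 3 of 7 cases and females in 1, and their sum was 237520 to 316050 CPM in females and 204720 to 259900 CPM in males. Albumin alone took 20.6% of the female counts and 16.1% of the male ones. All 3 sinusoidal endothelial markers tested were higher in females (sum 70.4 to 87.6 CPM against 24.9 to 71.0 CPM in males). Kupffer cell and macrophage markers were female-biased in 2 of 8 cases and male-biased in 0 (182 to 270 against 106 to 362 CPM), and of 7 stellate cell markers 1 was higher in each sex (175 to 251 against 139 to 257 CPM). The 2 of 8 lies near the 20.5% over all genes. Bile duct, lymphocyte and neutrophil markers had summed levels of at most 36.3 CPM in any animal, and Cftr, Cd3e, Cd3g, S100a9, Mpo and Elane were at 0 in at least 1 library. S100a9, the 1 neutrophil marker that was tested, was higher in males (log2 -2.62 ± 0.853 SE, adjusted p = 0.0261), at 14.1 CPM in male 4 and 0.98 to 1.75 CPM in the other males. Without male 4 its log2 difference was -1.14 (adjusted p = 0.0149). Leaving out male 4 also raised the Kupffer cell and macrophage markers higher in females from 2 to 7 of 8, and the stellate cell markers higher in females from 1 to 3 of 7, with 0 higher in males. Over all 9972 genes tested without male 4, 2389 were higher in females and 2238 higher in males. The part of cell makeup in the members' difference was not tested. With the 20 most abundant genes left out of totals and tests, 49 members were still higher in males and 0 in females.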

How the data were processed

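Liver RNA of 6 female and 6 male rats had been sequenced, with 1 TruSeq RNA library per animal from 1 µg of total RNA, per the labels' protocols. The deposited values are whole-number read counts per gene symbol, not normalized. The submitters' processing notes name Bowtie2 2.0.2, DESeq and build rn4; which program, annotation and strand setting made the counts is not given in the sources used here. Reads of overlapping and antisense genes, and of the 40 RefSeq pseudogene entries named after 23 members, may be shared. For the 44 members without such entries, 32 were higher in males, with a median log2 difference of -0.31. Whether reads were shared was not tested. Nothing ties animals to separate litters or batches.

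The 5 closing rows that name no gene (27.1% to 31.7% of counts) were left out. Counts were tested in R 4.3.3 with edgeR 4.0.16: filterByExpr with sex as the group (minimum count 10, minimum total 15), TMM factors, robust dispersions, the quasi-likelihood F test, and Benjamini-Hochberg adjustment over 9943 genes. SE is the size of the log2 difference divided by the square root of F. The test was also run on simulated counts, in which far fewer genes were changed than were called here. That run does not show how the test behaves at the share called in these data. Alternatives used limma 3.58.1, DESeq2 1.42.0, other size factors and filters, and left out animals. Depth limits genes with few counts most; member counts ran from 40 to 1911 per library.

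Members and lists were chosen with earlier results of these data known, among them that male 4 and female 12 stand apart. In each subunit the naming rule took up to 6 members with the largest change among those past the threshold, the 3 with the highest CPM (no transcript lengths were used), the 3 with the smallest change, Mrps30, Mrps18a and Mrps36, and up to 2 genes of each other list and direction. Mrpl10, Mrpl17, Mrpl22, Mrpl32, Mrpl40, Mrpl41, Mrpl45, Mrpl46, Mrpl47, Mrps11, Mrps12, Mrps18c, Fau, Ndufb5, Ppp1r10, Psma2, Pnpla7, Hira, Dap3, Ptcd3, Nrf1, Gabpa and Yy1 were named after their values were seen. Promoters are RefSeq's, build GRCr8.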

Additional observations from a re-analysis of the deposited data

Results flagged for a closer look

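Levels of the named genes were checked in each sex for an animal whose gap to its nearest neighbour was too large a part of the group's range by Dixon's criterion for 6 values, which chance passes in about 1 in 20 groups. It was passed in 3 of 88 groups, and in 6 of 134 over all members. Mrpl49 was at 8.45 CPM in male 4, against 11.3 to 12.9 CPM in the other males. Mrps30 was at 34.1 CPM in female 9, against 25.0 to 26.9 CPM in the other females. Rpl41, a cytosolic ribosomal protein gene, was at 196 CPM in male 4, against 164 to 168 CPM in the other males. Male 4 also stood apart over all genes.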

How the results depend on the processing

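Over 21 other settings (3 other scalings, DESeq2, limma-voom, 2 other filters, the 20 most abundant genes removed, male 4 and female 12 removed, and each of 12 animals left out), 46 to 51 members were higher in males and 0 in females, with a median log2 difference between -0.32 and -0.28 (all genes, -0.02 to 0.02). Of the 50 calls, 46 held in every setting; Mrpl13, Mrpl21, Mrps28 and Mrps9 were past the threshold in 11, 17, 12 and 5 of 21. With library totals as the only scaling, 46 members were higher in males. Genes with differences near 0 changed sign. Mrpl49 was at -0.0032 with no filter and -0.0873 without male 4 and female 12 together, and between -0.0629 and 0.0470 with 1 animal left out. Mrpl51 ranged from -0.063 to 0.0041 with 1 animal left out, above 0 only without female 13. Mrps10 was at -0.0311 without male 4 and female 12 together, and between -0.0472 (without male 4) and 0.1081 with 1 left out. Mrps26 was at 0.0429 without both and reached 0.0144 without female 12. The count of synthetases higher in females went from 1 to 0 with no filter, and over animals left out ranged from 0 to 1 (0 without female 7, 9, 10 or 13 or male 1). Translation factors higher in males went from 3 to 1 with library totals and ranged from 1 to 3 over animals left out (1 without female 8 or 10 or male 1). Regulators higher in females went from 1 to 0 under limma-voom, with no filter and without male 4 and female 12 together, and ranged from 0 to 1 over animals left out (0 without female 7, 8, 9 or 10 or male 1, 3, 4 or 5). The cause was not tested. No paired analysis was possible because the females and males share no animal numbers. Mrps10, at 40 counts in its shallowest library, is limited most by depth.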
